A study of Mus musculus with 6 samples.

Results

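Erythroid cells are built by a small set of transcription factors and cofactors, and 10 of their genes were followed here: Gata1, Tal1, Klf1, Klf3, Nfe2, Gfi1b, Zbtb7a, Lmo2, Ldb1 and Zfpm1. They were chosen by gene symbol as master erythroid factors and their cofactors, and 10 of the 10 were found among the 35178 symbols of the count table. RNA was measured in Ter119-positive cells, that is, cells with an erythroid surface marker, from spleens of mice with sickle cell disease at 2 to 3 months of age on a mixed B6;129P2 background. One group was wild type for Nrf2 (WT, 3 libraries) and the other was Nrf2 knockout (KO, 3 libraries). Nrf2 is the transcription factor that switches on antioxidant genes. All 6 libraries share the sickle cell disease background, so no library shows these factors in healthy cells. The sources used here do not give the sickle alleles, the knockout allele, the cells in which it acts, or how many animals stand behind a library. The p-values therefore measure spread among these libraries, and that spread may be technical.

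GATA1 is the zinc-finger protein that turns on many red cell genes, and it works with FOG1, the product of Zfpm1, which acts through its contact with GATA1 and brings in the NuRD corepressor. TAL1 is a basic helix-loop-helix protein that binds DNA with an E protein partner, and LMO2 and LDB1 bridge it to GATA1 in one complex. KLF1 binds CACCC-type sites in globin, heme and membrane genes, and KLF3 binds the same kind of site as a repressor that works through CtBP. NF-E2, whose large subunit is encoded by Nfe2, is a relative of Nrf2 and pairs with small Maf proteins. GFI1B and ZBTB7A are repressors, the first through LSD1 and CoREST.

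Library totals ran from 16420054 to 21790983 reads. For the labelled cell type, 8 erythroid marker genes were summed. They reached 32461 to 33178 CPM (counts scaled to library size) in the WT libraries and 22788 to 24325 CPM in the KO libraries. Slc4a1 was the largest part of these sums, with a mean of 15794 CPM in WT and 12102 CPM in KO. With no library of other cells to compare, the sums show erythroid reads but do not measure purity. Nfe2l2, the gene for Nrf2, stood at 98.7, 71.0 and 75.2 CPM in WT replicates 1, 2 and 3 and at 63.4, 76.8 and 68.6 CPM in KO replicates 1, 2 and 3. These ranges overlapped (log2 change -0.23, SE 0.140, adjusted p = 0.556 by edgeR), and as the deleted part is not given, these reads do not check the genotype. The labels give no sex, and the libraries were not alike in sex-linked transcripts. On library totals, Xist reached 784 to 1169 CPM in WT and was near that in KO replicate 3 (917), but was 15.8 in KO replicate 1 and 0.702 in KO replicate 2. Chromosome Y genes had a sum of 212 CPM in KO replicate 1, 271 in KO replicate 2, 4.64 in KO replicate 3 and 0 to 0.289 in WT, so KO replicate 3 was not like WT in these reads. The main values were therefore also computed for KO replicate 3 as the lone KO library, on the assumption that it varies like the others.

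Klf1, Klf3 and Tal1 were lower in KO than in WT, at 0.604, 0.597 and 0.630 of their WT levels, and Nfe2 was lower by a smaller amount, while Gata1 and the adaptor genes stayed nearer to their WT levels. None of these differences passed the test across all genes. edgeR's quasi-likelihood test called 0 of the 10 genes at an adjusted p under 0.05 (Benjamini-Hochberg over 13721 genes), where it called 0.0219% of all genes, every one of them lower in KO. At an unadjusted p under 0.05, 4 of the 10 were lower in KO and 0 higher, against 5.98% of all genes lower and 6.25% higher (12.2% in either direction). Those 4 were Klf1, Klf3, Tal1 and Nfe2. DESeq2, run as an alternative, called the same 4 genes lower in KO, against 2.69% of the 9487 genes it adjusted (3.57% in either direction), and limma-voom called 0 of the 10 and 0 of all genes. Every KO library was below every WT library for 6 of the 10 genes, a separation that 7.91% of all genes showed in that direction, 10.3% in the other and 18.2% in either. For these 6 the exact two-sided permutation p over libraries was 0.1, the smallest that 3 against 3 can give. The 10 genes had 2931 to 22740 reads in a library, so counting error was at most 1.85% of a value and the spread between libraries set the precision.

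**Figure D1:**
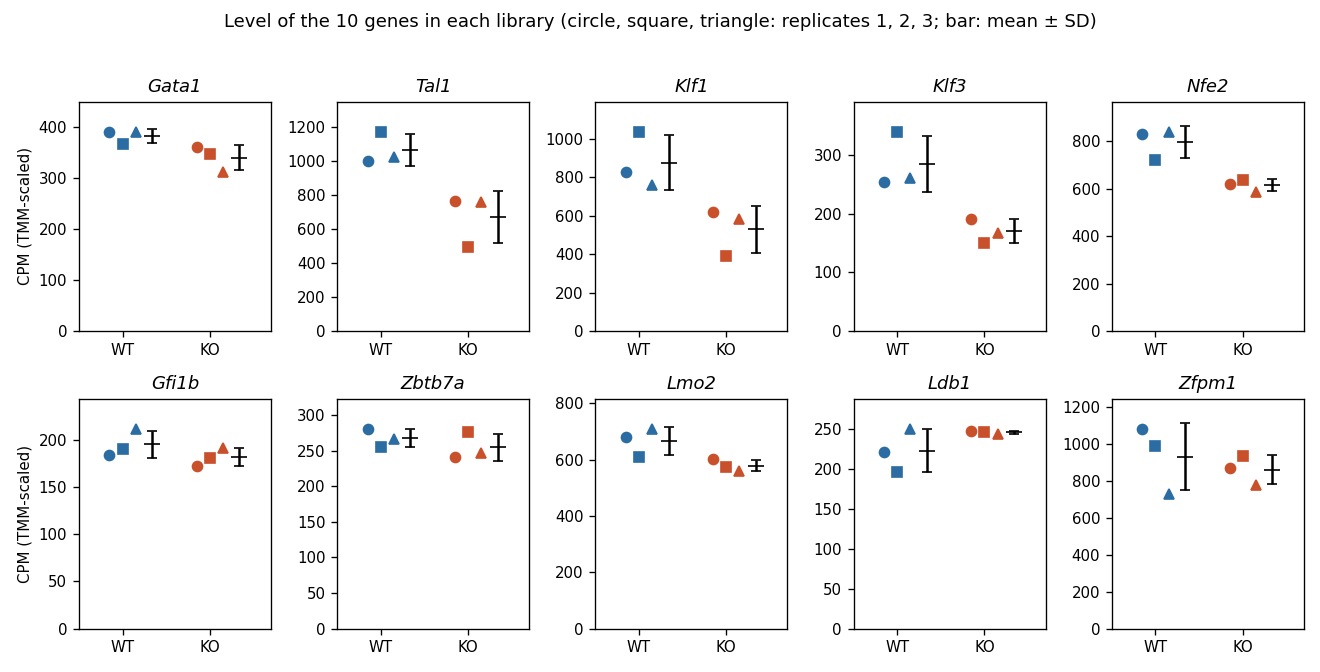
Level of each of the 10 genes in CPM (y axis, from 0, scaled separately for each gene) in the 3 WT and 3 KO libraries, with the mean and SD of each group as a bar at the right of its points. The 3 KO points lie below the 3 WT points for Gata1, Tal1, Klf1, Klf3, Nfe2 and Lmo2, and KO replicate 2 is the lowest for Tal1 (496 CPM), Klf1 (389 CPM) and Klf3 (151 CPM).

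Klf1 lies on chromosome 8 from 84901928 to 84905291 (mm10). It stood at 830.2, 1039 and 762 CPM in WT replicates 1, 2 and 3 and at 618, 389 and 583 CPM in KO replicates 1, 2 and 3. WT and KO did not overlap, with WT replicate 2 the highest and KO replicate 2 the lowest of the 6. The group means were 877 ± 144 and 530.1 ± 123 CPM (± SD over 3 libraries), a log2 change of -0.73 (SE 0.182, 95% interval -1.13 to -0.32, adjusted p = 0.167 by edgeR). Without single libraries the log2 change was between -0.88 and -0.56, and for KO replicate 3 alone it was -0.59.

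Tal1, on chromosome 4 from 115056426 to 115071755, had a similar library pattern. Its level was 1003, 1173 and 1022 CPM in WT replicates 1, 2 and 3 and 763, 496 and 757 CPM in KO replicates 1, 2 and 3. Again the groups were apart, and KO replicate 2 was well below the other KO libraries. The means were 1066 ± 93.2 CPM and 672 ± 153 CPM, a log2 change of -0.67 (SE 0.162, 95% interval -1.03 to -0.31, adjusted p = 0.163 by edgeR). With KO replicate 3 as the lone KO library the log2 change was -0.49, and leaving out 1 library at a time gave -0.79 to -0.50.

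Klf3, on chromosome 5 from 64803388 to 64832901, is itself known as a gene that KLF1 activates in mouse erythroid cells. It had the lowest p of the 10 genes, at rank 31 of 13721. Its level was 255, 339.7 and 260.2 CPM in WT replicates 1, 2 and 3 and 192, 151 and 168 CPM in KO replicates 1, 2 and 3. The highest KO library was thus below the lowest WT library, and WT replicate 2 stood above the other WT libraries, as for Klf1 and Tal1. The means were 285 ± 47.5 CPM and 170.1 ± 20.4 CPM, a log2 change of -0.74 (SE 0.138, 95% interval -1.05 to -0.44, adjusted p = 0.0906 by edgeR). For KO replicate 3 alone the log2 change was -0.76, and it was -0.86 to -0.60 without single libraries. A processed transcript on the opposite strand, Gm20033, overlaps the start of the Klf3 gene without sharing exons and had 52 to 119 reads in a library.

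The 250 bases before the annotated start are shown for these 3 genes and for Gata1, because the factors are known to act on one another's genes. Sequences are from RefSeq (build GRCm38.p6), read 5′ to 3′ on the strand of the gene. Capitals mark the GATA words (AGATAA or its variant AGATAG, and likewise the word TGATAA or its variant TGATAG), the KLF word CCNCNCCC and the E-box word CAGNTG, on either strand, with overlapping matches joined. The Klf1 window is chr8:84901732-84901981 (plus strand), the Tal1 window chr4:115056176-115056425 (plus), the Klf3 window chr5:64803271-64803520 (plus) and the Gata1 window chrX:7967911-7968160 (minus). The GENCODE gene starts of Klf1 and Klf3 lie inside these windows and that of Gata1 lies upstream of its window, since the annotations place them differently.
Klf1: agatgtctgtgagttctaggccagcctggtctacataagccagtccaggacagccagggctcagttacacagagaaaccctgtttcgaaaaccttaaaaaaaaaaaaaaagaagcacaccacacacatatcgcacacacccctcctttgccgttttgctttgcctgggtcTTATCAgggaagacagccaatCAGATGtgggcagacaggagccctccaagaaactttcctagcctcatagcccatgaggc
Tal1: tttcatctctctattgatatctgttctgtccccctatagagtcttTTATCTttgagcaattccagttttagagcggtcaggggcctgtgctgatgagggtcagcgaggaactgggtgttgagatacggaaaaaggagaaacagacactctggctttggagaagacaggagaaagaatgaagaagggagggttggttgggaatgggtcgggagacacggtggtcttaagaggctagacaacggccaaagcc
Klf3: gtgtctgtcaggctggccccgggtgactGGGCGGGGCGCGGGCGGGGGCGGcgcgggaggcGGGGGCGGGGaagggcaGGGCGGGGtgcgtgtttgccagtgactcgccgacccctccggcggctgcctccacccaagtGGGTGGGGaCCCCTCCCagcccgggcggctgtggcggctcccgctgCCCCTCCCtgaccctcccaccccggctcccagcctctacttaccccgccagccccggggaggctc
Gata1: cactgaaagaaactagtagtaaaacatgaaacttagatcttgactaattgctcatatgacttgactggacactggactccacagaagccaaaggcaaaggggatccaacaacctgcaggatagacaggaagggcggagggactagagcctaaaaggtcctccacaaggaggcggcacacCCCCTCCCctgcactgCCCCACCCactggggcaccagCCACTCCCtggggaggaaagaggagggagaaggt

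In the Klf1 window a GATA word begins 80 bases before the start and an E-box word 59 bases before it, the kinds of word that GATA1 and TAL1 are known to bind. The Klf3 window has 10 matches to the KLF word, some of which overlap, and 0 GATA words, and the Gata1 window has 3 KLF matches. The first Tal1 window has 1 GATA word, and a second annotated Tal1 start has 4 KLF matches. Such words are common: of 32851 promoter windows of the same length, 26.5% held a GATA word, 45.9% the KLF word and 44.8% the E-box word. RefSeq windows were matched for 8 of the 10 genes, with 11 windows in all. Of these, 5 held a GATA word, 9 the KLF word and 2 the E-box word. The core of the antioxidant response element that Nrf2 binds, TGACNNNGC on either strand, occurred in 4 of these 11 windows (Klf3, Gfi1b, Zfpm1 and the first of Ldb1) and in 10.2% of all windows. The word TGANTCA, shared by NF-E2 and AP-1 proteins, was in 0 of the 11 and in 6.75% of all windows. These are matches of letters, not sites shown to be bound.

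Nfe2, on chromosome 15 from 103248212 to 103258403, stood at 833, 720.0 and 841 CPM in WT replicates 1, 2 and 3 and at 622, 639 and 589 CPM in KO replicates 1, 2 and 3. WT and KO did not overlap, but here WT replicate 2 was the lowest WT library and KO replicate 2 the highest KO library. The means were 798 ± 67.7 CPM and 616 ± 25.6 CPM, a log2 change of -0.37 (SE 0.107, 95% interval -0.61 to -0.14, adjusted p = 0.202 by edgeR). It was -0.44 for KO replicate 3 alone and -0.44 to -0.33 without single libraries.

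Gata1, an X-linked gene (chromosome X from 7959260 to 7978071), stood at 389.8, 367 and 391 CPM in WT replicates 1, 2 and 3 and at 361, 346 and 312 CPM in KO replicates 1, 2 and 3. WT and KO were apart by a narrow margin, and the lowest library was KO replicate 3, the KO library with Xist. The means were 382 ± 13.6 CPM and 340.0 ± 25.3 CPM, a log2 change of -0.17 (SE 0.102, 95% interval -0.40 to 0.056, adjusted p = 0.551 by edgeR), and the change was -0.29 for KO replicate 3 alone.

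The repressor Gfi1b ranged over 184 to 212 CPM in WT libraries and 173 to 192 CPM in KO libraries, and Zbtb7a over 256 to 281 and 241 to 277 CPM. Both sets of ranges overlapped. The log2 change of Gfi1b was -0.10 (95% interval -0.33 to 0.12) and that of Zbtb7a -0.071 (95% interval -0.30 to 0.15), with adjusted p = 0.747 and 0.841 by edgeR. These intervals include no difference and leave out a change as large as the estimate for Klf1.

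Among the cofactors, the LIM-only adaptor Lmo2 stood at 680.2, 609.8 and 709 CPM in WT replicates 1, 2 and 3 and at 601, 575 and 561 CPM in KO replicates 1, 2 and 3. Its groups did not overlap, though WT replicate 2 was close to KO replicate 1 (log2 -0.20, SE 0.104, 95% interval -0.43 to 0.026, adjusted p = 0.472 by edgeR). Its binding partner Ldb1 stood at 221, 196 and 249.6 CPM in WT replicates 1, 2 and 3 and at 247, 246 and 244 CPM in KO replicates 1, 2 and 3. Ldb1 was the 1 gene of the 10 with a higher KO mean, with ranges that overlapped (log2 0.14, SE 0.110, 95% interval -0.10 to 0.39, adjusted p = 0.661 by edgeR). Zfpm1 stood at 1079, 986 and 725 CPM in WT replicates 1, 2 and 3 and at 869, 930.3 and 775 CPM in KO replicates 1, 2 and 3. WT replicate 3 was its lowest library, below each KO library (log2 -0.12, SE 0.148, 95% interval -0.44 to 0.21, adjusted p = 0.815 by edgeR). Without WT replicate 1 its log2 change was 0.0060.

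**Figure D2:**
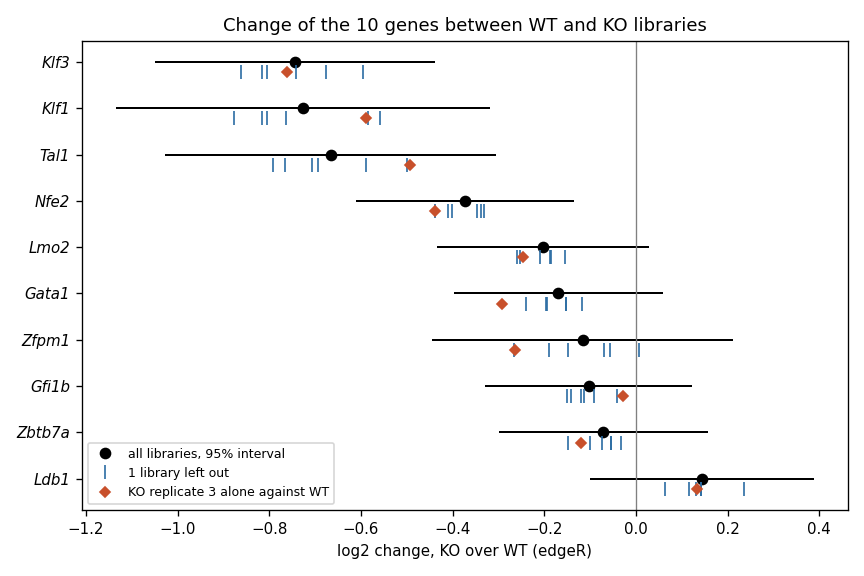
log2 change of KO over WT for each gene (x axis, black point, with the 95% interval as a line), the 6 values with 1 library left out (blue ticks) and the value for KO replicate 3 alone against WT (orange diamond). The intervals of Klf3, Klf1, Tal1 and Nfe2 lie below 0, and those of the other 6 genes include it.

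The scaling of the libraries bears on the small differences. With library totals in place of TMM scaling the median log2 change of all genes moved from 0.021 to 0.15, and that of the 10 genes from -0.19 to -0.055. Klf1, Klf3, Tal1, Nfe2, Gata1 and Lmo2 were lower in KO under each scaling tried, while Gfi1b, Zbtb7a and Zfpm1 had the opposite sign with library totals, so that 9 of the 10 were lower with TMM and 6 with library totals. The background moved as well: TMM gave 1678 genes at an unadjusted p under 0.05, 820 of them lower, and library totals gave 2502, 351 of them lower. With library totals the 10 genes gave 4 lower (Klf1, Klf3, Nfe2 and Tal1) and 1 higher, Ldb1 (log2 0.28, unadjusted p = 0.0256, adjusted p = 0.208 by edgeR). The same 5 had groups that did not overlap, while those of Gata1 and Lmo2 then did. The share of all genes without overlap was computed with TMM only, so this count has no background.

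Ratios within a library hardly depend on the scaling, and each gene was set against Gata1 in the same library. The log2 ratio of Klf1 to Gata1 averaged 1.18 ± 0.281 over the WT libraries and was 0.77, 0.17 and 0.90 in KO replicates 1, 2 and 3. For Tal1 it was 1.36, 1.68 and 1.39 in WT and 1.08, 0.52 and 1.28 in KO, and for Klf3 -0.61, -0.11 and -0.59 in WT and -0.91, -1.20 and -0.89 in KO. The KO libraries were thus below the WT libraries in all 3 ratios, by -0.57 for Klf1, -0.52 for Tal1 and -0.56 for Klf3. The ratio of Nfe2 was also lower in each KO library (-0.20), and that of Ldb1 was higher in each (0.32). The ratios of Gfi1b, Zbtb7a, Lmo2 and Zfpm1 overlapped between the groups, with differences of -0.029 to 0.099. The exact two-sided permutation p was 0.1 for each of the 5 ratios that did not overlap, the smallest that 3 libraries against 3 allow, and 0.18 after adjustment over the 9 ratios. How many of all genes had ratios to Gata1 that did not overlap was not computed, so this count has no background. Gata1 itself was lower in each KO library (log2 -0.17, against a median of 0.021 for all genes tested), which moves each ratio up. The CPM ranges of Ldb1 itself overlapped. For KO replicate 3 alone the differences were -0.28 for Klf1, -0.20 for Tal1, -0.46 for Klf3, -0.14 for Nfe2 and 0.43 for Ldb1, so the first 4 were nearer to 0 than with the 3 KO libraries and that of Ldb1 farther. Gfi1b went from 0.070 to 0.27, Zbtb7a from 0.099 to 0.17 and Lmo2 from -0.029 to 0.048. Without KO replicate 2 the difference was -0.35 for Klf1 and -0.30 for Tal1.

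**Figure D3:**
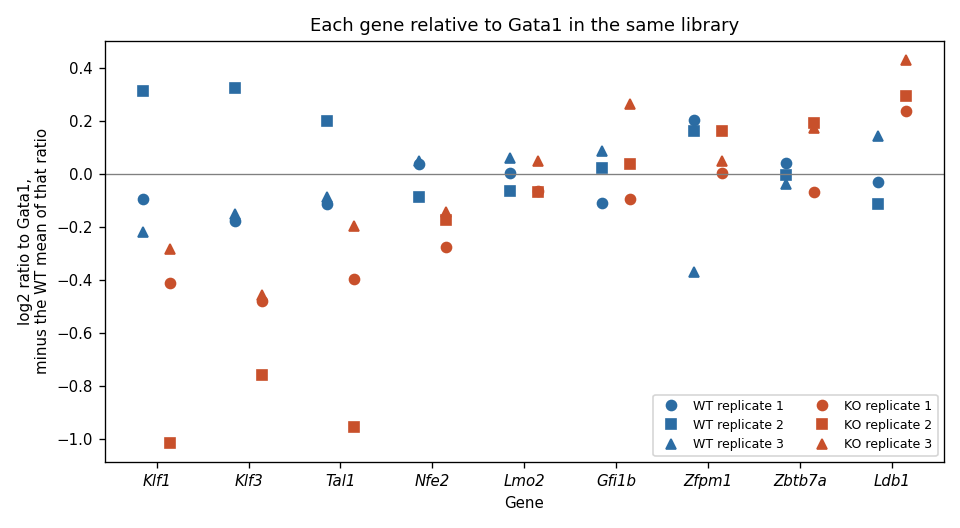
log2 ratio of each of 9 genes to Gata1 within a library, minus the WT mean of that ratio (y axis), for the 3 WT (blue) and 3 KO (orange) libraries. The KO points of Klf1, Klf3, Tal1 and Nfe2 lie below their WT points and those of Ldb1 above, and KO replicate 2 is the lowest for Klf1, Klf3 and Tal1.

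The 10 genes fell into different library patterns. The distance between patterns was taken as the root mean square difference of log2 CPM over the 6 libraries after each gene was centred on its own mean. It was 0.0795 between Klf1 and Tal1, 0.137 between Klf1 and Klf3 and 0.149 between Tal1 and Klf3. Gata1 lay 0.0548 from Lmo2 and 0.115 from Nfe2, but 0.399 from Klf1 and 0.359 from Tal1. Among 4932 genes with a mean of at least 32 CPM, those nearest to Klf1 were Eif2ak1 (0.0569), Slc3a2 (0.0618) and Tal1. Those nearest to Tal1 were Fech (0.0556), Tfrc (0.0608) and Prdx2 (0.0627), and those nearest to Gata1 were Tmem186 (0.0237), Anp32b and Ppme1 (0.0313). These distances describe 6 libraries that share their depth and scaling, and are no test.

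**Figure D4:**
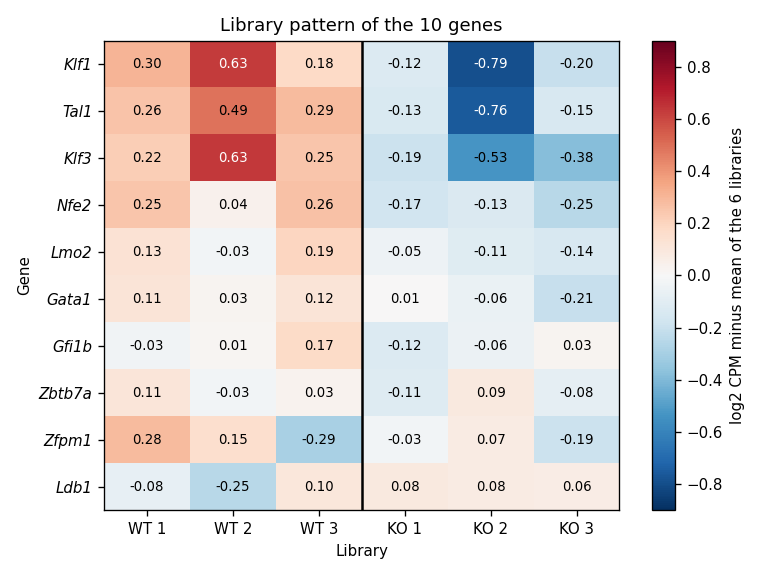
log2 CPM of each gene (rows) in each library (columns) minus the gene's mean over the 6 libraries, with red for higher and blue for lower. Klf1, Tal1 and Klf3 share a high WT replicate 2 (0.49 to 0.63) and a low KO replicate 2 (-0.79 to -0.53), which the other 7 genes do not show.

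Levels of different genes were compared per kilobase of exon. In WT, Klf1 was the highest of the 10 at 573 ± 94.0 CPM per kilobase. It was followed by Lmo2 (352 ± 27.0), Nfe2 (351 ± 29.8), Zfpm1 (274 ± 54.1), Tal1 (249 ± 21.8), Gata1 (201 ± 7.14), Gfi1b (107 ± 7.91), Klf3 (52.9 ± 8.83), Ldb1 (51.5 ± 6.21) and Zbtb7a (42.1 ± 1.96). Among neighbours in this order the WT libraries overlapped between Lmo2 and Nfe2, Nfe2 and Zfpm1, Zfpm1 and Tal1, and Klf3 and Ldb1. In KO, Klf1 had the highest mean at 346 ± 80.7 CPM per kilobase, but its libraries overlapped those of Lmo2 (306 ± 10.6), and KO replicate 2 at 254 was below that library's Lmo2, Nfe2 and Zfpm1. Tal1 (157 ± 35.6) and Gata1 (179 ± 13.3) also overlapped, with Tal1 the higher of them in KO replicate 3. Klf3, at 31.6 ± 3.79, was the lowest of the 10 in each KO library.

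The partners of TAL1 and the enzymes that these factors recruit were taken from fixed lists. Of 11 TAL1 complex partners tested, 0 passed the adjusted threshold by edgeR, and at an unadjusted p under 0.05 there was 1 lower and 1 higher, against 5.98% and 6.25% of all genes (median log2 0.16, against 0.021 for all genes tested). The corepressor Cbfa2t3, known as ETO2, stood at 104, 82.2 and 88.6 CPM in WT replicates 1, 2 and 3 and at 40.0, 46.5 and 67.1 CPM in KO replicates 1, 2 and 3. Its groups did not overlap (log2 -0.84, SE 0.183, adjusted p = 0.138 by edgeR), and DESeq2 called it lower. The LDB1-binding protein gene Ssbp4 had a log2 change of 0.35 (SE 0.136), the LIM-only gene Lmo4 0.35 (SE 0.176) and the E protein gene Tcf12 0.23 (SE 0.122). Among 31 corepressor and coactivator genes edgeR called 0 and DESeq2 0. At an unadjusted p under 0.05 there were 3 higher and 1 lower, against 6.25% and 5.98% of all genes, with a median log2 of 0.048. Every KO library was above every WT library for 7 of the 31 and below for 2, against 10.3% and 7.91% of all genes. The 4 with the smallest p were Mbd3 (log2 0.35, SE 0.108), Ep300 (-0.28, SE 0.114), Hdac2 (0.23, SE 0.0984) and Rbbp7 (0.21, SE 0.0931). Mbd3, Hdac2 and Rbbp7 encode subunits of NuRD, whose other listed subunit genes lay on both sides of 0 and are named after their values were seen. Above 0 were Mta1 (0.16), Mta2 (0.11), Chd4 (0.11), Mta3 (0.048) and Chd3 (0.027). Below 0 were Mbd2 (-0.16), Rbbp4 (-0.15), Gatad2a (-0.12), Hdac1 (-0.027) and Gatad2b (-0.0033).

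A list of genes that the factors are known to switch on in red cells was measured too. Of 33 listed, 30 were found under their symbols and 26 passed the filter on low counts. All 26 of those tested had a KO over WT change below 0, as had 6463 of all 13721 genes tested. Of the 26, 23 were lower at an unadjusted p under 0.05 against 5.98% of all genes, and their median log2 was -0.41 over all 26. The adjusted threshold was passed by 0 of the 26 with edgeR, by 2 with library totals, upper-quartile scaling or DESeq2 size factors, and by 11 of 29 with no filter. Of all 13721 genes, those called lower numbered 3 with TMM, 9 with library totals, 8 with upper-quartile scaling and 9 with DESeq2 size factors. With no filter they numbered 168 of 21680. DESeq2 passed 14, all lower, against 2.69% of the 9487 genes it adjusted. Of the 29 listed genes it fitted, 27 were below 0. The membrane skeleton gene Epb4.1 had a mean of 5519 ± 514 CPM in WT libraries and 3011 ± 267 CPM in KO libraries, a log2 change of -0.87 (SE 0.120, adjusted p = 0.0528 by edgeR). The heme enzyme gene Ppox had a log2 change of -0.86 (adjusted p = 0.0528 by edgeR), and Trim58 (-0.81) and Trim10 (-0.81), which encode proteins of maturing red cells, had adjusted p = 0.0690 and 0.0815 by edgeR. The 23, where 820 of all 13721 genes were lower, became 14 with library totals, where 351 of 13721 genes were lower. Without KO replicate 3 the number was 15, where 656 of 14089 genes were lower. For KO replicate 3 alone the median log2 of the 26 was -0.47. Fewer cells of a type among the Ter119-positive cells and less RNA per cell cannot be told apart in bulk samples, here and for the 10 factors.

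Other regulators of erythroid cells and genes that GATA1 turns down were also listed. Of 11 other erythroid regulators, 5 were lower and 0 higher at an unadjusted p under 0.05, against 5.98% and 6.25% of all genes. edgeR called 0 of them and DESeq2 3 lower, against 2.69% of all genes (median log2 -0.20). E2f2, a cell cycle factor and KLF1 target, stood at 1691, 2097 and 1987 CPM in WT replicates 1, 2 and 3 and at 1173, 829 and 1426 CPM in KO replicates 1, 2 and 3. Foxo3, a forkhead factor gene, had a log2 change of -0.61 (SE 0.188), the GATA1 target Hemgn -0.38 (SE 0.122) and the globin regulator Sox6 -0.43 (SE 0.147). Of 6 genes that GATA1 turns down as cells mature, 0 passed either threshold by edgeR or the adjusted one by DESeq2 (median log2 0.094). Gata2 averaged 11.9 ± 3.02 CPM over the WT and 13.1 ± 0.676 CPM over the KO libraries, Myb 50.4 ± 5.32 and 57.3 ± 9.63, Spi1 23.8 ± 2.10 and 28.3 ± 4.19 and Hhex 8.95 ± 2.34 and 6.75 ± 1.30. Their ranges overlapped between the groups.

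**Figure D5:**
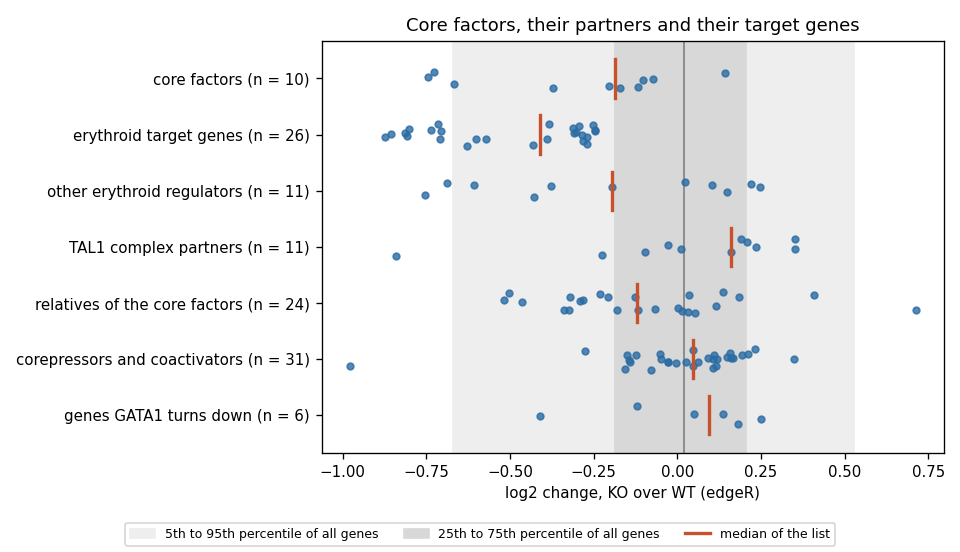
log2 change of KO over WT (x axis) for the 10 core factors and for the tested genes of 6 lists (blue points, spread vertically for legibility), with the median of each list in orange and the spread of all 13721 genes in grey. The 26 erythroid target genes have a median of -0.41 and lie below 0, while the TAL1 complex partners (0.16) and the corepressors and coactivators (0.048) lie on both sides of the median of all genes.

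Several of the 10 factors are also used by other blood cells, above all megakaryocytes, so the markers of such cells were summed in each library. The 13 platelet and megakaryocyte markers summed to 257 to 509 CPM in WT and 270.0 to 313 CPM in KO. In log2 change 12 of the 13 were below 0, against 6463 of all 13721 genes tested (median log2 -0.52). At an unadjusted p under 0.05, 2 of the 13 were lower, against 5.98% of all genes. The 8 basophil, mast cell and eosinophil markers summed to 8.11 to 16.7 and 6.02 to 16.2 CPM. The 8 early progenitor markers summed to 164 to 174 CPM in WT and 167 to 184 CPM in KO, and the 10 red pulp macrophage markers to 1417 to 1562 and 1551 to 1947 CPM. Neutrophil markers (8 genes) summed to 288 to 939.9 and 446 to 613 CPM, B cell markers (6 genes) to 39.6 to 182 and 23.9 to 73.4 CPM, and T cell markers (6 genes) to 16.2 to 26.9 and 17.1 to 33.0 CPM. The groups overlapped in each of these 7 sums, and no listed marker was at 0 in all libraries. The erythroid marker sum given above was the 1 sum with no overlap, lower in KO, and 7 of its 8 genes are also in the list of erythroid target genes. The B cell genes each had a change below 0 (6 of 6, against 6463 of all 13721 genes tested, median log2 -1.20). At an unadjusted p under 0.05, 0 of them were lower, against 5.98% of all genes. Their sum was 182, 39.6 and 53.8 CPM in WT replicates 1, 2 and 3 and 73.4, 23.9 and 29.6 CPM in KO replicates 1, 2 and 3, so WT replicate 1 stood far above the others. The macrophage genes each had a KO over WT change above 0 (10 of 10, against 7258 of all 13721 genes tested). At an unadjusted p under 0.05, 1 of the 10 was higher, against 6.25% of all genes. The part of these other cells, of the makeup of the erythroid cells and of sex in the values of the 10 factors was not tested.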

How the data were processed

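The authors deposited whole-number read counts per gene symbol for 6 libraries made from 1 ug of total RNA each, per the labels' protocols. The submitters' processing notes name build mm10, STAR 2.5, HTSeq and DESeq2, with no roles. Annotation and strand setting were not given in the sources used here, and the library kit does not mark strand, so how reads of overlapping and antisense genes were assigned is not known. Of 35275 lines, 27 held dates in place of gene names (0.340% to 0.383% of reads) and were left out, and 122 lines sharing 52 symbols were summed. Library pairs differed by a chi-square of at least 22.1 per gene, so none was a repeat.

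Genes were filtered (filterByExpr) and tested with edgeR 4.0.16 in R 4.3.3 (TMM scaling, robust quasi-likelihood F test, no covariate). Genes with an adjusted p under 0.05 were called. Levels are CPM on TMM-scaled totals, with 0.5 added before logs of ratios. DESeq2 1.42.0 and limma-voom (limma 3.58.1) were alternatives, with other scalings, filters and sets of libraries. The code was tested on simulated data. Positions and exon lengths came from GENCODE M21, of the same build.

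The 10 genes and the lists were chosen with earlier results of these data known, so no list counts as independent support. Besides the 10 genes, up to 4 genes of each list with the smallest p are named, and the 3 genes nearest in pattern to Gata1, Klf1 and Tal1.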

Additional observations from a re-analysis of the deposited data

How the results depend on the processing

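The number of genes called over the whole table depended on the processing. Against 3 with edgeR and TMM, it was 10 with DESeq2 size factors, 8 with upper-quartile scaling, 33 with library totals (24 higher and 9 lower), 339 with DESeq2, 0 with limma-voom (1681 at an unadjusted p under 0.05), 228 with no filter on low counts, 9 with 1 CPM in 3 libraries and 6 for KO replicate 3 alone. Without single libraries it was 0 to 14: 0 without WT replicate 2 (edgeR, with 1338 genes at unadjusted p under 0.05), 1 without KO replicate 2, 12 without KO replicate 1 and 14 without KO replicate 3.

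Of the 10 core factors, 0 were called in each alternative except DESeq2, which called 4 (Klf1, Klf3, Nfe2 and Tal1), and edgeR with no filter, which called 3 (Klf1, Klf3 and Tal1). The causes were not tested. The number at an unadjusted p under 0.05 was 4 or 5 in each alternative that kept more than 1 KO library. Over those alternatives the genes of the whole table under that threshold ran from 1153 of 14089 (without KO replicate 3) to 2502 of 13721 (library totals). The main fit had 1678 of 13721. Where KO replicate 3 was the lone KO library, Klf3 changed by -0.76 in log2, Klf1 by -0.59, Tal1 by -0.49 and Nfe2 by -0.44. With library totals 1 of the 5 was higher (Ldb1). Over the 17 alternatives the adjusted p of Klf3 ranged from 0.000101 to 0.561, that of Klf1 from 0.00169 to 0.619, that of Tal1 from 0.00192 to 0.622 and that of Nfe2 from 0.0293 to 0.576. With library totals the log2 changes of Gfi1b (0.030), Zbtb7a (0.060) and Zfpm1 (0.010) were above 0, as was that of Zfpm1 without WT replicate 1 (0.0060, in a range of -0.27 to 0.0060 without single libraries). The erythroid target genes lower at an unadjusted p under 0.05 numbered 14 with library totals and 15 (no KO replicate 3) to 23 (no KO replicate 2) without single libraries. Of all genes, 351 were lower with library totals, 656 without KO replicate 3 and 1080 without KO replicate 2. These counts over the target list and the counts of groups that do not overlap were added after the data were seen.

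Libraries of the same replicate number in WT and KO had deviations correlated by 0.107, 0.0553 and 0.0123 for numbers 1, 2 and 3. Each WT library correlated best with the KO library of its number, but KO replicate 3 correlated best with WT replicate 2 (0.0493). These values were small, and the numbers were taken as names only. With the replicate number as a block, 9 genes and 0 core factors were called. At an unadjusted p under 0.05, 4 core factors were lower, as were 882 of all 13721 genes.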

Other observations

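The relatives of the core factors were measured beside them. Of 28 listed, 24 were tested and 0 were called by edgeR or DESeq2. At an unadjusted p under 0.05 there were 3 lower and 0 higher, against 5.98% and 6.25% of all genes (median log2 -0.12). The small Maf genes Mafk and Mafg, whose products pair with NF-E2 and with Nrf2, stood at 307 ± 28.7 and 376 ± 28.8 CPM in WT and at 253 ± 30.0 and 301 ± 55.2 CPM in KO, as mean ± SD over 3 libraries. Their log2 changes were -0.28 (SE 0.121) and -0.32 (SE 0.139). Klf11 (log2 -0.34, SE 0.147) and Klf13 (log2 -0.32, SE 0.158), from the family of Klf1 and Klf3, had adjusted p = 0.387 and 0.451 by edgeR.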
